A study of Mus musculus with 5 samples.

Results

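The endothelial genes Cdh5, Pecam1, Kdr, Flt1, Tek, Tie1, Cldn5, Esam, Eng and Emcn were followed in wildtype mouse embryos at stage E14.5, in medial cortex and in lateral cortex. These 10 genes, taken by symbol from 34590 gene symbols in the count files, were chosen as a list of genes of vessel lining cells. RNA sequencing was done on 3 libraries of medial cortex and 2 libraries of lateral cortex, all untreated, of wildtype genotype and of a mixed strain background. The series title concerns Sonic hedgehog signalling and cortical progenitors, and its design compares these regions only. The labels do not say whether the libraries came from separate embryos or from pooled tissue, so p-values measure the spread between these libraries, which may be technical.

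Endothelial cells line blood vessels. In the embryonic brain they enter the cortex from a plexus on its outer surface and grow inward towards the progenitors at the ventricle. Vascular endothelial growth factor (VEGF) from neural cells guides this growth through receptor tyrosine kinases, and Wnt ligands of the Wnt7 family help vessels enter and acquire the tight junctions of the blood-brain barrier. The genes followed here encode junction proteins, VEGF and angiopoietin receptors, a co-receptor for TGF-beta family ligands and a surface sialomucin. Bulk tissue was sequenced, so fewer endothelial cells and less RNA per endothelial cell cannot be told apart.

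Levels are CPM, read counts scaled to the size of the library, after TMM normalisation, a scaling that evens out library composition. The libraries held between 27406370 and 36460274 gene reads in medial cortex and between 56147129 and 66981952 in lateral cortex, so depth differed with region. A floor of 3 reads corresponded to between 0.0448 and 0.109 CPM over the libraries, covering counting error only. Of 8 genes of cortical progenitors and neurons, all were detected in each library, and the 3 medial libraries averaged 108 CPM ± 5.46 (SD) for the patterning factor Emx2, against 43.5 ± 12.1 CPM in the 2 lateral ones. Tbr1 averaged 91 ± 33.4 CPM in medial and 243 ± 51.2 CPM in lateral libraries, and Neurod6 386 ± 163 and 1050 ± 183 CPM (SD). Of the 8 genes, 4 had lower and 4 had higher levels in medial cortex. Whether the make-up of the tissue differed between the regions was not tested. Medial library 1 stood apart: 13 listed genes of meningeal fibroblasts summed to 309 CPM there, against 15.7 and 21.7 CPM in medial libraries 2 and 3 and 16 and 25.7 CPM in lateral libraries 1 and 2. Collagen gene Col1a1 had 97.2, 0.874 and 3.17 CPM in medial and 0.745 and 4.62 CPM in lateral libraries, and of the 8 genes of this list that could be tested 0 passed in edgeR (1 at an unadjusted p under 0.05) and 1 in DESeq2. Single libraries also decided many calls. Without medial library 2 or without lateral library 2, 0 genes passed edgeR's quasi-likelihood test, although 4035 and 2456 genes then had an unadjusted p under 0.05, and without lateral library 1 only 18 genes passed.

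The letters upstream of the start sites are shown for a few of the genes, because ETS transcription factors, which bind a GGAA core, are established regulators of endothelial genes. RefSeq promoters (build GRCm38.p6) were matched for 7 of the 10 genes, Kdr, Flt1, Tek, Tie1, Cldn5, Eng and Emcn. The 250 bases before the start are printed for the VEGF receptor genes Kdr and Flt1, for the receptor gene Tie1 and for Cldn5, with GGAA or its complement TTCC in capitals. The windows are chr5:75978456-75978705 on the minus strand for Kdr, chr5:147726012-147726261 on the minus strand for Flt1, chr4:118489850-118490099 on the minus strand for Tie1 and chr16:18776597-18776846 on the plus strand for Cldn5.
Kdr: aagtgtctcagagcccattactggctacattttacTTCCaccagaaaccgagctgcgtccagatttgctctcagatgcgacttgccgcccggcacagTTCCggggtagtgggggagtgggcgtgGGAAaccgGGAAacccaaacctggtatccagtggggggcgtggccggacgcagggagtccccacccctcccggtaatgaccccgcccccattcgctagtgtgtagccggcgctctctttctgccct
Flt1: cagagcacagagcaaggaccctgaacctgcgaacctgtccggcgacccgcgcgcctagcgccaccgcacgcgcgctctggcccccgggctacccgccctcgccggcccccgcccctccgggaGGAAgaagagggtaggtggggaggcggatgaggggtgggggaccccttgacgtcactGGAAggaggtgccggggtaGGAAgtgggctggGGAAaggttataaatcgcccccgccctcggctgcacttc
Tie1: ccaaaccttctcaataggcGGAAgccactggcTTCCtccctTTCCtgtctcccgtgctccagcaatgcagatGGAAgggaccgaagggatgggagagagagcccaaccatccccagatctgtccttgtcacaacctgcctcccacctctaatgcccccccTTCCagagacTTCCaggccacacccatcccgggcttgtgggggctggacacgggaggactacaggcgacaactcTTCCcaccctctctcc
Cldn5: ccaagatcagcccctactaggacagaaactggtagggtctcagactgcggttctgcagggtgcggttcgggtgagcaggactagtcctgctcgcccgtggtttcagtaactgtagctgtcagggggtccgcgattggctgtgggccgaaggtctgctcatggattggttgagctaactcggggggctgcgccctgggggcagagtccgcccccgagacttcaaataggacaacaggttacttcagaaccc

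On both strands GGAA occurred 7 times in the Tie1 window, 4 times each in those of Kdr, Flt1 and Emcn, 3 times in that of Eng, 2 times in that of Tek and 0 times in that of Cldn5. The core is common: 93.4% of 32851 promoters of the same length held it. The longer form AGGAAG, which contains the core, was found in 4 of the 7 windows, those of Flt1, Tie1, Eng and Emcn, and in 29.5% of all promoters. A TATAAA box was present in the Flt1 window alone among the 7, and in 12.4% of all promoters. The motif AGATAA of GATA factors was in 0 of the 7 windows and in 9.99% of all promoters, and the motif ACAATG of SOX factors in 0 of the 7 and in 10.7% of all promoters. The windows ranged in GC content from 40.8% in Emcn to 70.4% in Flt1, with a median of 52.4% over all promoters. These are matches of letters, not binding sites.

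All 10 endothelial genes had lower mean levels in medial than in lateral cortex, and for 1 of them, Cdh5, the difference passed the test across all genes. All 10 had enough reads to be tested. Their log2 fold changes, medial over lateral, ran from −0.64 for Cldn5 to −0.19 for Kdr with a median of −0.51, while the median over 16229 genes tested was 0.01. By edgeR's quasi-likelihood test with Benjamini-Hochberg adjustment over all genes, 0 members were higher and 1 was lower in medial cortex at an adjusted p of 0.05, against a background of 4.62% of all genes called higher and 5.10% called lower, 9.72% in all. In 9 of the 10 genes every medial library was below every lateral library, a pattern seen in 26.7% of all genes, and in 0 of the 10 was every medial library above, as in 26.5% of all genes. At an unadjusted p under 0.05, 7 members and 16.3% of all genes were lower. Summed over the 10 genes, medial libraries 1 to 3 held 115, 101 and 104 CPM, and lateral libraries 1 and 2 held 134 and 152 CPM.

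**Figure D1:**
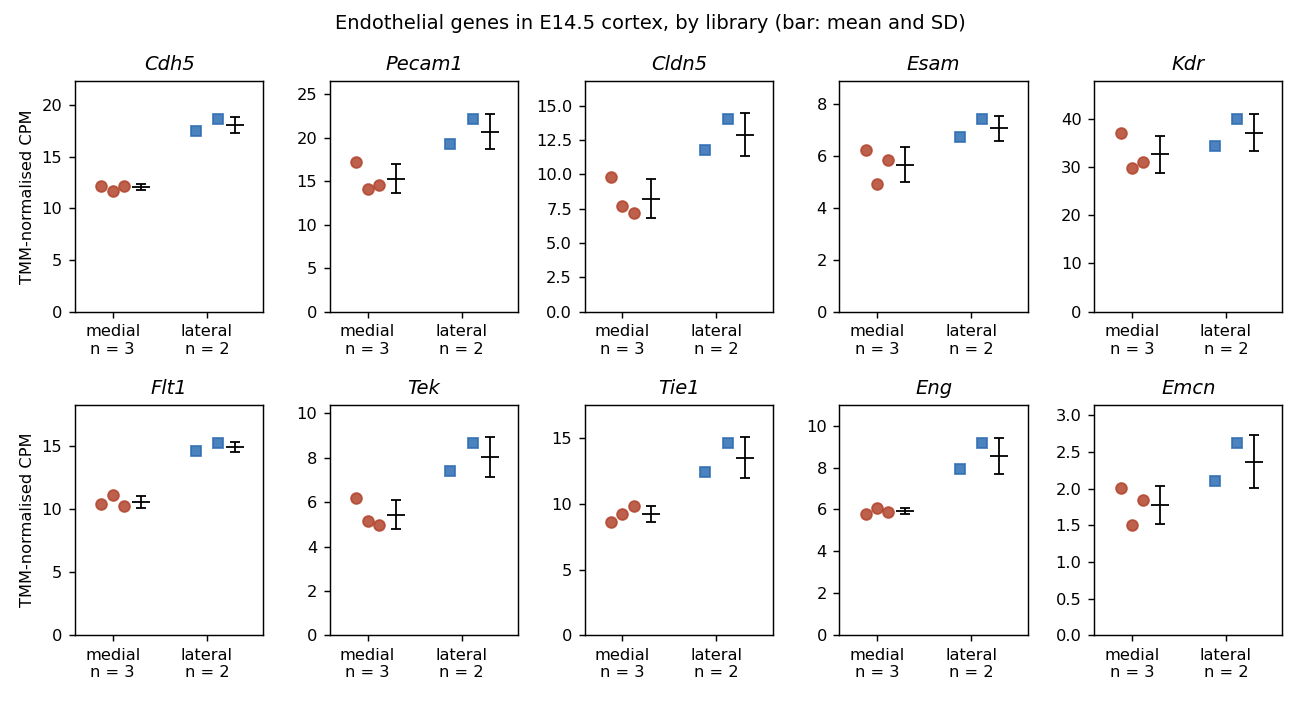
Levels of the 10 endothelial genes in TMM-normalised CPM (vertical axes, each starting at 0) in 3 medial libraries (red circles) and 2 lateral libraries (blue squares), with the mean and SD beside each group. The medial libraries lie below the lateral ones for every gene but Kdr, where medial library 1 reached 36.9 CPM and lateral library 1 had 34.4 CPM.

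Among the junction genes, Cdh5 encodes VE-cadherin, the adhesion molecule of endothelial adherens junctions. Cdh5 had 12.2, 11.7 and 12.2 CPM in medial libraries 1 to 3, against 17.5 and 18.6 CPM in lateral libraries 1 and 2. The medial values were close together and well below both lateral ones. The 3 medial libraries averaged 12.1 CPM ± 0.295 (SD) and the 2 lateral ones 18.0 ± 0.818 (SD). The log2 fold change was −0.58 with an SE of 0.11 and an edgeR adjusted p of 0.0368, so that Cdh5 fell by 33.2% in medial cortex relative to lateral cortex. The call ended without medial library 2 (edgeR adjusted p 0.131), medial library 3 (0.0662), lateral library 1 (0.0992) or lateral library 2 (0.270), with log2 fold changes between −0.63 and −0.54, and it held without medial library 1 (0.0314).

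Cldn5 encodes claudin-5, the main tight junction protein of brain endothelium. Cldn5 had 9.82, 7.73 and 7.18 CPM in the medial libraries, against 11.8 and 14 CPM in the lateral libraries. The groups did not overlap, but medial library 1 stood nearer to the lateral values than its fellows. The log2 fold change was −0.64 (SE 0.18, 95% interval −1.09 to −0.20, edgeR adjusted p 0.0710), and without medial library 1 it was −0.79 with an adjusted p of 0.0313.

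Pecam1, the adhesion molecule CD31 of endothelial contacts and of some blood cells, had 17.2, 14.1 and 14.6 CPM in the medial libraries, against 19.3 and 22.1 CPM in the lateral libraries. Here too the medial library with the highest value was library 1, and the groups did not overlap. The log2 fold change was −0.43 (SE 0.14, edgeR adjusted p 0.0909), and −0.52 with an adjusted p of 0.0454 without medial library 1. Esam, an adhesion molecule of tight junctions that platelets also carry, had 6.21, 4.90 and 5.84 CPM in medial and 6.72 and 7.39 CPM in lateral libraries. The gap between the groups was small, and its log2 fold change of −0.32 had a 95% interval from −0.73 to 0.09 (edgeR adjusted p 0.247).

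Of the VEGF receptor genes, Kdr encodes VEGF receptor 2, the main signalling receptor for VEGF-A. Kdr had 36.9, 29.8 and 31.1 CPM in the medial libraries, against 34.4 and 39.8 CPM in the lateral libraries. It was the only member whose groups overlapped, and its log2 fold change of −0.19 had a 95% interval from −0.50 to 0.13 (edgeR adjusted p 0.365). Flt1 encodes VEGF receptor 1, which binds VEGF-A tightly and also exists as a soluble decoy. Flt1 had 10.4, 11.1 and 10.2 CPM in the medial libraries, against 14.6 and 15.2 CPM in the lateral libraries. Both groups were tight and clearly apart. Its log2 fold change was −0.50 (SE 0.12) with an edgeR adjusted p of 0.0510, just outside the threshold. The ratio of Kdr to Flt1, chosen after its values were seen, was 3.55, 2.70 and 3.05 in medial libraries 1 to 3 and 2.36 and 2.63 in the lateral libraries. These ratios did not overlap, although medial library 2 and lateral library 2 lay close together. Counts per gene do not separate the soluble from the membrane form of Flt1.

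Tek and Tie1 form the angiopoietin receptor pair, with Tek (TIE2) binding the ligands and Tie1 modulating it. Tek had 6.18, 5.14 and 4.98 CPM in medial and 7.39 and 8.65 CPM in lateral libraries. Tie1 had 8.64, 9.23 and 9.85 CPM in medial and 12.4 and 14.6 CPM in lateral libraries. In both genes the medial values lay below the lateral ones. The log2 fold changes were −0.56 (SE 0.17, edgeR adjusted p 0.0851) for Tek and −0.54 (SE 0.14, edgeR adjusted p 0.0585) for Tie1. The ratio of Tie1 to Tek, also chosen after its values were seen, was 1.40, 1.80 and 1.98 in the medial libraries and 1.68 in each lateral library, so the ratios of the groups overlapped.

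Eng encodes endoglin, a co-receptor for TGF-beta family ligands on endothelial cells. Eng had 5.79, 6.08 and 5.87 CPM in the medial libraries, against 7.95 and 9.16 CPM in the lateral libraries. The medial libraries were almost level and below both lateral ones, with a log2 fold change of −0.53 (SE 0.15, edgeR adjusted p 0.0682). In the later mouse annotation GENCODE M21, 61 exonic bases of Eng, 1.51% of its exon length, overlap Fpgs on the opposite strand, and no other member overlapped an exon of another gene. Emcn encodes endomucin, a sialomucin of capillary and venous endothelium. Emcn was the least abundant member, with 58, 43 and 66 reads in medial and 139 and 141 reads in lateral libraries. These correspond to 2.01, 1.504 and 1.84 CPM in medial and 2.11 and 2.62 CPM in lateral libraries. The difference was small against the spread, with a log2 fold change of −0.40 and a 95% interval from −0.96 to 0.16 (edgeR adjusted p 0.282).

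**Figure D2:**
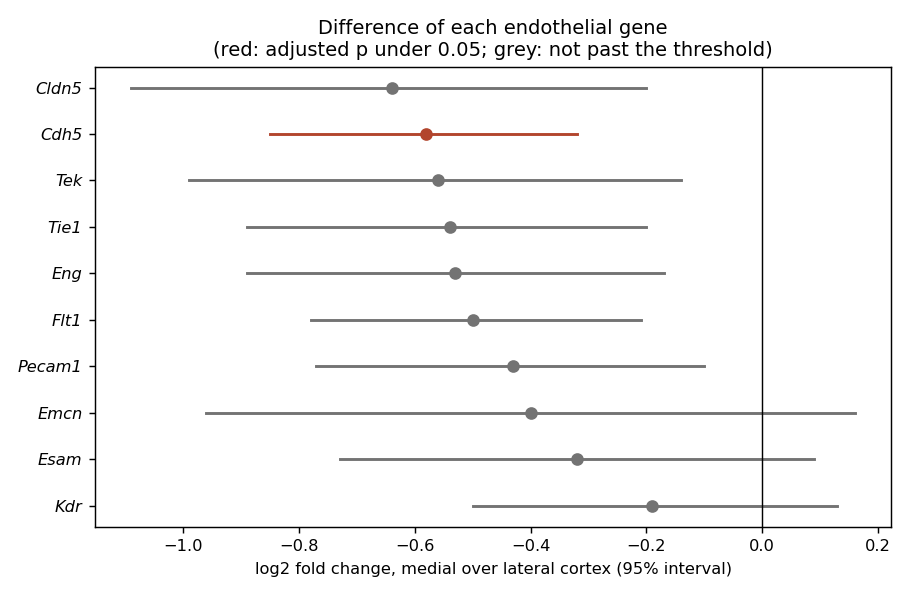
Log2 fold change of each endothelial gene, medial over lateral cortex (horizontal axis), with its 95% interval from edgeR. Every point lies below 0, from −0.64 for Cldn5 to −0.19 for Kdr, the intervals of Kdr, Esam and Emcn include 0, and Cdh5 (red) is the gene past the threshold.

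How many members passed depended on the test. Cdh5 and Flt1 passed with limma-voom, which called 5.23% of genes lower, and also when edgeR was run on genes with at least 1 CPM in 2 libraries, where 5.88% were. DESeq2 on the same counts called 7 of the 10 lower in medial cortex, all but Kdr, Esam and Emcn, where it called 11.0% of all genes lower. Without medial library 1, Cdh5, Pecam1 and Cldn5 passed in edgeR, with 6.94% of genes called lower, and all 10 members then had medial libraries below lateral ones, as did 31.4% of genes. The authors' file names carry a tag that medial library 2 shares with lateral library 1, and medial library 3 with lateral library 2. With that tag as a term in the fit, 8 members passed, all but Esam and Emcn, and 16.8% of genes were called lower. That fit has 1 residual degree of freedom, and the sources used here do not say what the tag stands for. Medial library 1 shares its tag with no lateral library, so it adds nothing to the region difference in that fit. Without medial library 2, medial library 3, lateral library 1 or lateral library 2, 0 members passed in edgeR and 0.00%, 1.51%, 0.0542% and 0.00% of genes were called lower, while between 2 and 7 members had an unadjusted p under 0.05.

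Within a library, the members kept similar proportions. Each member's log2 CPM was set against the mean log2 CPM of the 10 genes in the same library. Kdr stood 2.05, 1.93 and 1.94 above that mean in the medial libraries and 1.68 and 1.70 above it in the lateral libraries. This was the widest gap of any member, 0.28 higher in medial cortex, and the groups did not overlap. Cdh5 stood 0.46, 0.58 and 0.59 above it in medial and 0.70 and 0.60 above it in lateral libraries, a mean of 0.11 lower in medial cortex with groups that came close without overlapping. In the other 8 genes the groups overlapped, and their mean differences ran from −0.18 for Cldn5 to 0.15 for Esam. No test was made on these proportions, since each depends on the other members.

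**Figure D3:**
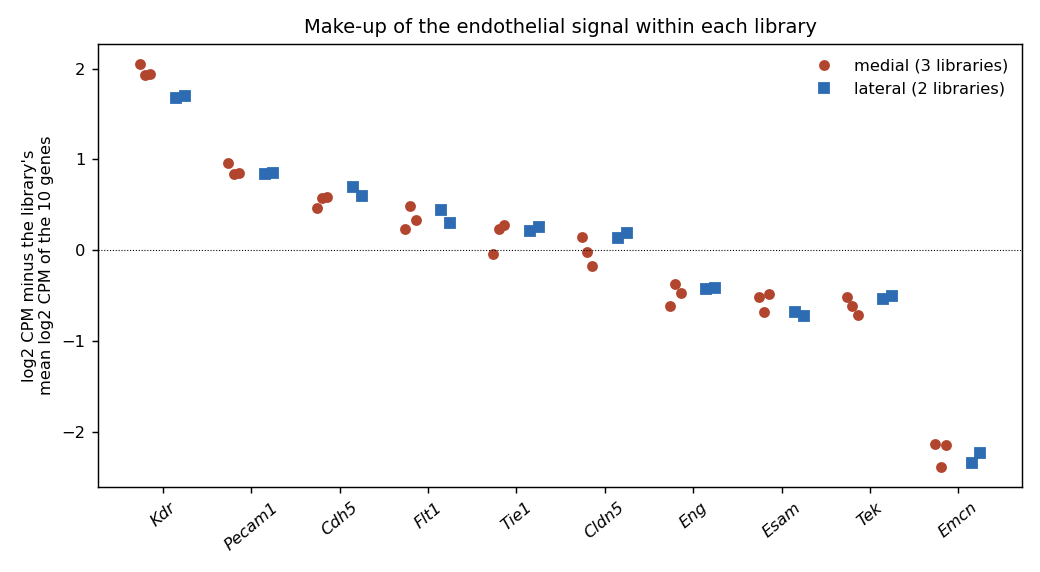
Log2 CPM of each endothelial gene minus the mean log2 CPM of the 10 genes in the same library (vertical axis), for 3 medial (red circles) and 2 lateral (blue squares) libraries. Kdr shows the clearest gap, with medial libraries at 1.93 to 2.05 and lateral libraries at 1.68 and 1.70.

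Levels between genes were compared per kilobase (kb) of exon, using exon lengths of GENCODE M21, which may differ from the annotation the authors counted on. On that scale Cldn5 was the most abundant member, at 5.82 CPM per kb ± 0.984 over the 3 medial libraries and 9.11 ± 1.10 over the 2 lateral ones (SD). Kdr followed in medial cortex at 3.61 ± 0.419 CPM per kb and Cdh5 at 2.86 ± 0.0687, while in lateral cortex they were at 4.11 ± 0.423 and 4.29 ± 0.185, within their spread of each other. Pecam1 came next in each region, at 2.46 ± 0.267 CPM per kb in medial and 3.32 ± 0.318 in lateral cortex. Esam and Tie1 did not differ beyond their spread, at 1.97 ± 0.236 and 1.88 ± 0.123 CPM per kb in medial cortex and at 2.46 ± 0.165 and 2.75 ± 0.316 in lateral cortex. Eng and Tek stood below them, and Flt1 (0.782 ± 0.0350 in medial, 1.10 ± 0.0314 in lateral cortex) and Emcn (0.330 ± 0.0480 and 0.437 ± 0.0667) were the lowest per kb. With the longest transcript as the length, Cldn5, Eng and Emcn kept their places in both regions, and the other genes moved by up to 2 places in at least 1 region, except Kdr and Tie1 in medial cortex.

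Genes outside the list with the most similar pattern over the 5 libraries were ranked by the root mean square difference of centred log2 CPM, among 13797 genes. The closest were Tbc1d8 (difference 0.024), 0610010F05Rik (0.031), Col4a2 (0.032), Acvr2a (0.034) and Loh12cr1 (0.039). With 5 libraries and this many genes, close patterns are common. These genes were picked for likeness to the members, so their lower levels in medial cortex follow from the ranking and are no separate result. Col4a2 encodes a collagen IV chain of basement membranes, the layer that surrounds vessels. Col4a2 had 58.9, 51.1 and 51.9 CPM in medial and 73.2 and 79.5 CPM in lateral libraries, and was lower in medial cortex (log2 fold change −0.50, SE 0.10, edgeR adjusted p 0.0375). Its call ended without medial library 2 (0.130), medial library 3 (0.0708), lateral library 1 (0.0925) or lateral library 2 (0.275), and when libraries were scaled by size alone (0.0592). Among the other endothelial genes described next, Eltd1, picked after its rank was seen, came closest, at rank 20. After it came Cd93 (131) and Gpr116 (159). Sox17 (190), Rasip1 (232), Fli1 (350), Cd34 (436), Arhgef15 (457), Clec14a (546) and Ecscr (585) also ranked high among the 13797 genes. Nos3 (825), Erg (1690), Sox18 (2112), Mmrn2 (2335) and Robo4 (2784) lay further down. The lowest ranks were those of Egfl7 (3003), Ramp2 (4635), Sox7 (7614) and Icam2 (7779), so the list followed the members closely in part.

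Further genes of endothelial cells pointed the same way but 0 of 21 passed edgeR's test in either direction. At an unadjusted p under 0.05, 12 were lower and 0 higher, while 16.3% of all genes were lower. Of these 21, 20 had a log2 fold change below 0, as did 48.5% of all genes. In 15 of them every medial library was below every lateral one, a pattern of 26.7% of all genes. Their median log2 fold change was −0.44. DESeq2 called 3 of the 21 lower, where it called 11.0% of all genes lower. The block by tag called 12 lower, where it called 16.8% of all genes lower. The most abundant were Cd93, a surface receptor of endothelial cells, and Cd34, a sialomucin of endothelial and blood progenitor cells. Cd93 had 31.3, 27.2 and 26.2 CPM in medial and 32.4 and 38.2 CPM in lateral libraries (log2 fold change −0.32, edgeR adjusted p 0.138). Cd34 had 17.2, 13.8 and 14.4 CPM in medial and 17.3 and 18.8 CPM in lateral libraries (−0.25, adjusted p 0.264). In both, medial library 1 came within reach of lateral library 1. Erg, an ETS factor of endothelial cells that was picked after its values were seen, had 2.60, 2.48 and 2.89 CPM in medial and 4.53 and 4.05 CPM in lateral libraries (−0.69, SE 0.18, edgeR adjusted p 0.0615).

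**Figure D4:**
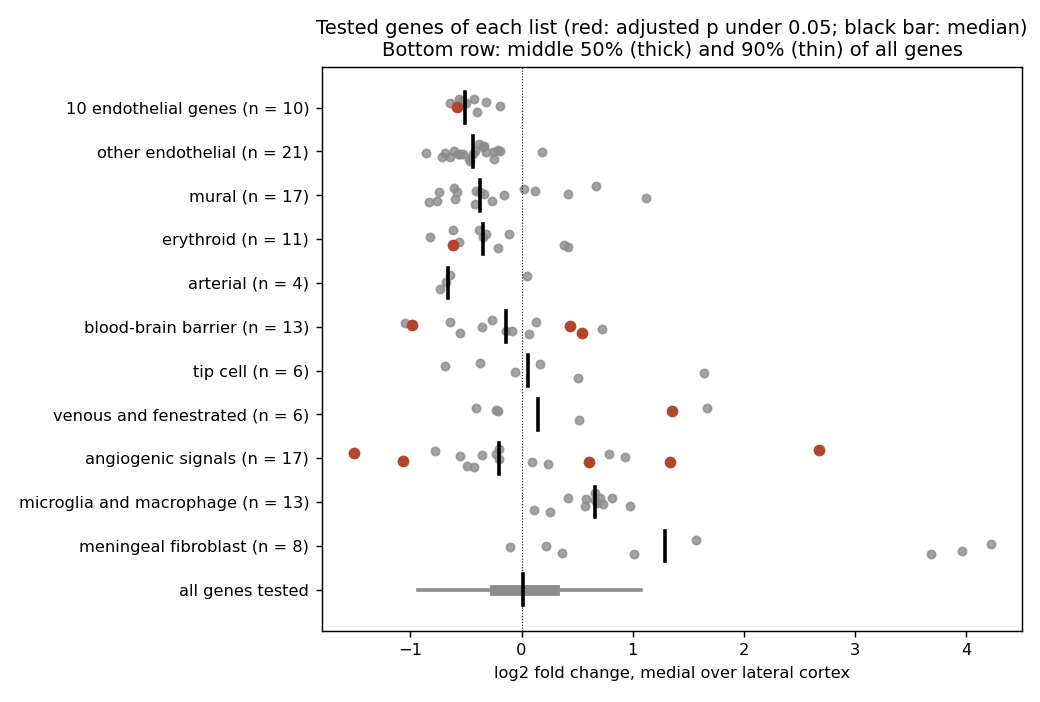
Log2 fold change, medial over lateral cortex (horizontal axis), of each tested gene of the lists (points, jittered vertically, red where the edgeR adjusted p was under 0.05), with each list's median as a black bar and the middle 50% (thick) and 90% (thin) of all genes tested in the bottom row. The 10 endothelial genes (median −0.51) and 20 of the 21 other endothelial genes (median −0.44) lie left of 0, and the microglia and macrophage genes (0.66) lie right of it.

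Genes of the blood-brain barrier did not move together. Of 13 tested, 2 were higher and 1 was lower in medial cortex, against 4.62% and 5.10% of all genes. The median log2 fold change of the 13 was −0.14. Foxq1, a forkhead factor enriched in brain endothelium, was lower, with 1.53, 1.504 and 1.59 CPM in medial and 3.21 and 2.90 CPM in lateral libraries (log2 fold change −0.99, SE 0.19, edgeR adjusted p 0.0383). Slc16a1, a monocarboxylate transporter, and Tjp1, a junction scaffold, were higher (0.44 and 0.54, edgeR adjusted p 0.0383 and 0.0449), and both are also expressed by neural cells. The calls of Foxq1, Slc16a1 and Tjp1 ended without medial library 2 or 3 or either lateral library, with adjusted p values from 0.0569 to 0.299. With no filter on low counts those of Slc16a1 (0.0782) and Tjp1 (0.0642) ended too, and that of Foxq1 ended after thinning the libraries to one depth (0.0756). DESeq2 called 3 barrier genes higher and 3 lower, and the fit with the file-name tag 3 higher and 6 lower. Among all 16229 genes, DESeq2 called 1737 higher and 1790 lower, and the fit with the tag 2634 higher and 2727 lower. At an unadjusted p under 0.05 in edgeR, 2588 of the 16229 genes were higher and 2643 lower. The counts of the other lists stand against the same numbers. Slc2a1, the glucose transporter of barrier endothelium, had 44.9, 50.4 and 51.5 CPM in medial and 61.6 and 63.9 CPM in lateral libraries (−0.36, edgeR adjusted p 0.0576). Mfsd2a, a lipid transporter of the barrier, had 31.7, 34.1 and 27.9 CPM in medial and 30.3 and 29.3 CPM in lateral libraries (0.07, 95% interval −0.21 to 0.34). Slc2a1 thus lay lower in every medial library without passing the test, a pattern of position seen in 26.7% of all genes, whereas Mfsd2a overlapped.

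Markers of vessel subtypes were few, and their calls depended on the fit. Of 6 genes of tip cells, the leading cells of sprouts, 0 passed edgeR's test (1 higher and 0 lower at an unadjusted p under 0.05), and DESeq2 called 0. Cxcr4, a chemokine receptor that migrating neurons also express, had 113, 40.7 and 40.7 CPM in medial and 17.7 and 23.8 CPM in lateral libraries (1.64, edgeR adjusted p 0.0892). Without medial library 1 its log2 fold change was 0.97 and passed (edgeR adjusted p 0.0237). Angpt2, the ligand that antagonises Tek, was near the lower end of detection, with 39, 18 and 20 reads in medial and 62 and 42 reads in lateral libraries (log2 fold change −0.06, 95% interval −1.08 to 0.95). Of 4 tested arterial genes 0 passed in edgeR or DESeq2 (2 lower at an unadjusted p under 0.05 in edgeR), with a median log2 fold change of −0.66. Efnb2 had 102, 167 and 252 CPM in medial and 262 and 314 CPM in lateral libraries (−0.73, edgeR adjusted p 0.207). Hey1 had 49.8, 75 and 82.6 CPM in medial and 79.5 and 53.9 CPM in lateral libraries (0.05, edgeR adjusted p 0.912). Both exceeded every endothelial member in each library, and bulk tissue does not show which cells they came from. Of 6 venous or fenestrated genes Nrp2 was higher (1.35, edgeR adjusted p 0.0253), a gene that neurons also express. Its call ended without medial library 2 (0.108), lateral library 1 (0.0531) or lateral library 2 (0.197). DESeq2 called 3 of these 6 genes higher. Without medial library 1 edgeR called 2 of them higher, and 1027 of 16392 genes in all. With the file-name tag in the fit, 1 tip cell gene was higher and 1 lower, 3 of the 4 arterial genes were lower, and 3 venous or fenestrated genes were higher and 1 lower. Plvap, a marker of fenestrated and immature vessels, had 1.84, 2.66 and 3.42 CPM in medial and 3.54 and 3.57 CPM in lateral libraries (−0.41, edgeR adjusted p 0.339). The medial libraries were spread widely and reached almost to the lateral level.

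Among signals that act on vessels, Vegfa, the gene of a ligand that Kdr and Flt1 share, did not separate the regions. Vegfa had 30.3, 42.1 and 36.3 CPM in medial and 47.0 and 36.4 CPM in lateral libraries (log2 fold change −0.20, 95% interval −0.63 to 0.22, edgeR adjusted p 0.465). Of 17 tested signal genes 3 were higher and 2 lower in medial cortex, against 4.62% and 5.10% of all genes. DESeq2 called 4 higher and 2 lower, and the fit with the file-name tag 4 higher and 6 lower. Vegfc, a ligand for the VEGF receptors Flt4 and Kdr, was higher, with 7.25, 11.96 and 9.40 CPM in medial and 4.39 and 3.10 CPM in lateral libraries (1.34, SE 0.28, edgeR adjusted p 0.0418). Tgfb2, a TGF-beta ligand, was also higher (2.68, adjusted p by edgeR 0.0296), as was the integrin gene Itgav (0.61, adjusted p by edgeR 0.0467), which was named after its values were seen and not recomputed without single libraries. Wnt7b, a ligand that brain endothelium receives from neural cells, was lower, with 69.9, 86.1 and 115 CPM in medial and 217 and 298 CPM in lateral libraries (−1.51, SE 0.23, edgeR adjusted p 0.0313). Wnt7a, its close relative, overlapped at 20.5, 32.9 and 33.6 CPM in medial and 36.3 and 30.2 CPM in lateral libraries (−0.20, edgeR adjusted p 0.597). Nrp1, a VEGF co-receptor that neurons also express, was lower (−1.07, edgeR adjusted p 0.0253). The calls of Vegfc, Tgfb2, Wnt7b and Nrp1 ended without medial library 2, lateral library 1 or lateral library 2, with adjusted p values from 0.0550 to 0.284, and that of Vegfc also without medial library 3 (0.0734).

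Cells that accompany vessels were read from their own markers. Of 17 tested genes of mural cells, the pericytes and smooth muscle cells around vessels, 0 passed edgeR's test (5 lower and 1 higher at an unadjusted p under 0.05), 12 had a log2 fold change below 0, and the median was −0.37. DESeq2 called 2 of them lower, as did edgeR without medial library 1, against 11.0% and 6.94% of all genes. With the file-name tag in the fit, 5 were lower and 1 was higher, where 16.8% of all genes were called lower. Pdgfrb, the receptor that marks pericytes, had 11.1, 10.04 and 10.7 CPM in medial and 10.9 and 14.8 CPM in lateral libraries, so the groups overlapped (−0.27, edgeR adjusted p 0.310). The summed level of the 18 listed mural genes was between 164 and 192 CPM in medial and between 188 and 192 CPM in lateral libraries. The mural list includes Notch3, which neural progenitors express as well. Notch3 made up a large part of the summed level, with 80.1 ± 19.4 CPM (SD) in medial and 50.4 ± 14.7 CPM (SD) in lateral libraries. Its log2 fold change of 0.67 (edgeR adjusted p 0.143) was opposite in sign to the median of the list. By library, Notch3 had 59.4, 98 and 82.9 CPM in medial and 60.8 and 40 CPM in lateral cortex. The mural sums were 164, 192 and 187 CPM in the same medial and 188 and 192 CPM in the same lateral libraries. What remained of the sum without Notch3 was thus smaller in each medial library than in each lateral one. No test was made on these sums.

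Markers of blood and of other cells moved with the endothelial genes in part. Of 11 erythroid genes, 9 had a log2 fold change below 0 with a median of −0.35, and Hbb-y, an embryonic beta-type globin, was lower, with 70.6, 74.1 and 85.3 CPM in medial and 110 and 126 CPM in lateral libraries (−0.62, SE 0.11, edgeR adjusted p 0.0347). Its call ended without medial library 2 (0.123), lateral library 1 (0.0738) or lateral library 2 (0.257). Without medial library 1, 4 of the 11 passed as lower, as did 6.94% of all genes. DESeq2 called 2 of the 11 lower and the fit with the file-name tag 6, against 11.0% and 16.8% of all genes. Over the listed erythroid genes the sums were 485 to 687 CPM in medial and 697 to 770 CPM in lateral libraries. Platelet genes, relevant because Pecam1, Esam and Tek can also come from blood cells, summed to 2.76 to 3.23 CPM in medial and 3.83 to 5.35 CPM in lateral libraries over 6 genes. Of these, Gp9 and Gp6 were at 0 reads in some libraries, and 2 of the 6 could be tested, Gp1bb (−0.82, edgeR adjusted p 0.0861) and Itga2b (−0.13, edgeR adjusted p 0.758). Microglia and macrophage genes ran the other way: all 13 tested had a log2 fold change above 0 with a median of 0.66, 0 passed edgeR's test, which gave 0 also at an unadjusted p under 0.05, and DESeq2 called 0. The log2 fold change was 0.73 for the microglial receptor gene Cx3cr1 (edgeR adjusted p 0.209) and 0.42 for Csf1r, a macrophage growth factor receptor gene (edgeR adjusted p 0.348). The listed genes' sums were between 35.6 and 76.4 CPM in medial libraries and 28.5 and 37.7 CPM in lateral libraries, with the highest sum in medial library 1, and without it the median was 0.22. The part of these cells in the endothelial result was not tested. The median of the 10 endothelial genes was −0.51 with and without medial library 1.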

How the data were processed

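RNA of dissected E14.5 cortex was sequenced from polyadenylated, unstranded libraries, per the labels' protocols. The authors deposited raw read counts per gene symbol for each library, and the submitters' processing notes name mm9, BWA, STAR and HTSeq without roles or versions. HTSeq's 5 classes of unassigned reads (23.1% to 28.7% of each file) were left out. After filterByExpr (minimum count 10, minimum total 15), 16229 genes were kept, scaled by TMM and fitted with glmQLFit of edgeR 4.0.16 (R 4.3.3), with region as the only term. P-values were adjusted by Benjamini-Hochberg at 0.05. The SE is the log2 fold change over the root of F. The fit was tested on simulated data with changes larger than those of the members, so that test does not cover differences of their size. Exon lengths came from GENCODE M21 and promoters from RefSeq, both on GRCm38, a later build than the authors'. Alternatives used DESeq2 1.42.0, limma-voom (limma 3.58.1), other scalings and filters, thinning, blocks and leaving out each library. Named genes were the members, 8 anchors, up to 4 called genes (or the 2 most abundant) per list and the 5 most similar genes. Members and lists were chosen with earlier results of these data known.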

Additional observations from a re-analysis of the deposited data

How the results depend on the processing

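Under all 16 alternatives each of the 10 endothelial genes had a log2 fold change below 0. Against the 1 member lower in medial cortex, limma-voom and a filter of 1 CPM in 2 libraries gave 2 (Cdh5 and Flt1), DESeq2 7, the block by tag 8 and the replicate block, by number, 0, and leaving out single libraries gave 0 to 3. Among all genes, against 1577 calls, DESeq2 gave 3527, the block by tag 5361, the replicate block 1076, and leaving out single libraries 0 to 2164. Library deviations from their group means correlated at 0.07 for the libraries numbered 1 and −0.44 for those numbered 2, and at 0.44 and 0.45 for libraries sharing a tag, over 13807 genes; lateral libraries 1 and 2 mirror each other, so these are not independent. The numbers were not treated as pairs in the main fit. In the replicate block medial library 3 shares its number with no lateral library. It thus adds nothing to the region difference there, and 1 residual degree of freedom is left. Without a lateral library the lone one left is assumed to vary like the medial ones. Signs turned for Wnt7a with the block by tag (0.01), for Angpt2 with library size alone (0.01), the replicate block (0.19) and without single libraries (−0.55 to 0.20), for Hey1 with the replicate block (−0.10) and without single libraries (−0.20 to 0.35), for Col1a1 and Col3a1 with the block by tag (−0.36 and −0.48) and without single libraries (−0.32 to 5.49 and −0.47 to 2.04, below 0 without medial library 1), and for Itga2b after thinning (0.22). The cause was not tested. The replicate block also ended the calls of Cdh5 (0.0985), Foxq1 (0.115), Slc16a1 (0.0587), Vegfc (0.120), Col4a2 and 0610010F05Rik (0.0996 each), Acvr2a (0.122) and Emx2 (0.0525), and Efnb2 passed with it (adjusted p 0.0433). Of the 10 endothelial genes, Emcn had the fewest reads in each library, from 43 to 141.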

Other observations

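Lymphatic endothelium was looked for by 4 markers. Lyve1 had 13, 1 and 4 reads in medial and 3 and 6 reads in lateral libraries and was too low to test. Flt4, a VEGF receptor of lymphatic and sprouting vessels, had 4.16, 3.88 and 4.31 CPM in medial and 5.14 and 4.90 CPM in lateral libraries (log2 fold change −0.28, edgeR adjusted p 0.271). Prox1 and Pdpn were higher in medial cortex (4.31 and 1.06, edgeR adjusted p 0.0316 and 0.0494), and both are also genes of neural cells. Their calls ended without medial library 2 or either lateral library, with adjusted p values from 0.0792 to 0.311, and that of Pdpn also without medial library 3 (0.0540), with the older edgeR form (0.0518) and with no filter on low counts (0.0608). For Prox1 the value was 3.63 with medial library 1 left out. Flt4 and Lyve1 were chosen after their values were seen.

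Col4a1, the partner chain of Col4a2 and likewise chosen after its values were seen, had 119, 101 and 97.6 CPM in medial and 142 and 152 CPM in lateral libraries, and it was lower (−0.48 on the log2 scale, edgeR adjusted p 0.0475). Hspg2, the basement membrane proteoglycan perlecan, picked the same way, went in the other direction, with 84.5, 84.7 and 66.1 CPM in medial and 43.1 and 28.2 CPM in lateral libraries (1.14, edgeR adjusted p 0.0369). These genes were not among those recomputed without single libraries.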
